A study of Curvularia clavata with 15 samples.

Results

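The 115 genes described here were lower in mycelia of Curvularia clavata lacking tah-1, and stayed close to the wild type (WT) in mycelia lacking CclaeA or rpn-4, on a scale that divides each library by a size factor. They were 115 of the 10170 gene IDs listed, and all 115 were among the 9265 that passed the filter on low values. The RNA came from mycelia of strain J1 after 4 days in shaken Vogel's minimal medium, in 15 libraries, 3 in each of 5 groups. The WT cultures received 2% glucose, or 2% lignosulfonate plus 0.25% glucose. The ΔCclaeA, Δrpn-4 and Δtah-1 deletion mutants were all grown on the lignosulfonate medium. All groups share strain J1, the medium base and the time of harvest. The sources used here do not say whether each mutant was 1 isolate or whether replicates were separate cultures. The p-values below weigh a difference between the WT media against the spread between these libraries, which may be only technical variation. No source used here pairs the IDs with names, products or positions. The genes are therefore named by ID, no role is given to any of them, and neither the deleted genes nor the labelled tissue could be checked against the values.

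Lignosulfonate is a water-soluble, sulfonated form of lignin, the aromatic polymer of wood and straw. Filamentous fungi act on lignin with secreted oxidative enzymes, among them laccases, copper enzymes that oxidise phenols, and the series was made to find regulators of laccase activity. LaeA proteins are known in Aspergillus as regulators of secondary metabolism, Rpn4 of budding yeast activates proteasome genes, and in Neurospora crassa the name tah-1 (tall aerial hyphae) belongs to a transcription factor gene. Fungi also repress many genes when glucose is abundant, so a gene that differs between these media can follow the lignosulfonate or the glucose, which cannot be told apart here.

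The genes were chosen from the same values that describe them. FPKM values (fragments per length of transcript and per mapped total of the library) were divided by a size factor for each library, the median ratio of its values to those of all libraries, and are called scaled FPKM below. The difference between a mutant and WT on lignosulfonate was taken between group means as log2(mean + 1). Genes were kept at a difference of -1.5 or less in Δtah-1 and strictly between -1 and 1 in both other mutants. Of 291 genes past the Δtah-1 threshold, 21 were set aside because they had at least 10 FPKM in all libraries of 1 WT medium and under 1 FPKM in all libraries of the other. All 21 were on in lignosulfonate and off in glucose, and 6 of them met the other conditions. Of the remaining 270 genes, 128 lay outside the band in ΔCclaeA and 97 in Δrpn-4, with 70 outside in both. In ΔCclaeA, 97 of the 128 were lower than WT, while in Δrpn-4, 73 of the 97 were higher. The contrasts of the mutants with WT on lignosulfonate are therefore given below as description, with no test.

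The choice depends on the scaling. Size factors ran from 0.683 to 0.696 in Δrpn-4 and from 1.18 to 1.303 in WT on lignosulfonate, so that the median FPKM of a Δrpn-4 library was at most 17.6 against at least 30.9 in WT on lignosulfonate. With FPKM as deposited the rule found 198 genes, 61 of them among the 115, and after rescaling to equal sums (TPM) it found 80, of which 43 were shared. The 115 genes themselves met the Δtah-1 threshold under all 3 scalings, with a median difference of -1.71 after size factors, -2.11 as deposited and -1.87 as TPM. Over all tested genes the median Δtah-1 difference was 0.01, -0.33 and -0.11 in the same order. Both other scalings thus lowered Δtah-1 in general, so nothing is read from genes chosen after size factors meeting the threshold there. Δrpn-4 moved further, and 53 of the 115 were at -1 or less in it as deposited and 72 as TPM. Over all tested genes the median Δrpn-4 difference was -0.79 as deposited and -0.94 as TPM, against -0.01 after size factors.

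One library stood apart within Δtah-1. Replicate 2 had a size factor of 1.21, against 0.807 and 0.870 in replicates 1 and 3. Across tested genes its log2 values correlated at 0.956 and 0.964 with those of replicates 1 and 3, which correlated with each other at 0.982. Without it, 88 of the 115 genes stayed at -1.5 or less, all 115 stayed at -1 or less, and the median difference was -1.69. Headers name the unit FPKM for the 6 WT libraries and no unit for the 9 mutant libraries, and the part of this difference between files in the contrasts with WT was not tested.

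Loss of tah-1 left a median of 27.7% of the WT level on lignosulfonate, with a range of 9.09% to 35.0% over the 115 genes. The difference ran from -3.45 to -1.501 with a median of -1.71, against a median of 0.01 over all tested genes. Most genes lay near the threshold, with 88 above -2, 19 from -2.5 to -2, and 8 at -2.5 or less. Of all tested genes, 3.12% were at -1.5 or less. In all 115 genes the 3 Δtah-1 libraries lay below the 3 WT lignosulfonate libraries, a separation seen in 29.9% of all tested genes. In 113 of the 115 they also lay below the other 9 lignosulfonate libraries, against 17.2% of tested genes. The rule used these libraries, so nothing is read from these counts. In RNA from whole mycelia, less transcript per hyphal compartment and fewer compartments that express a gene cannot be told apart.

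**Figure D1:**
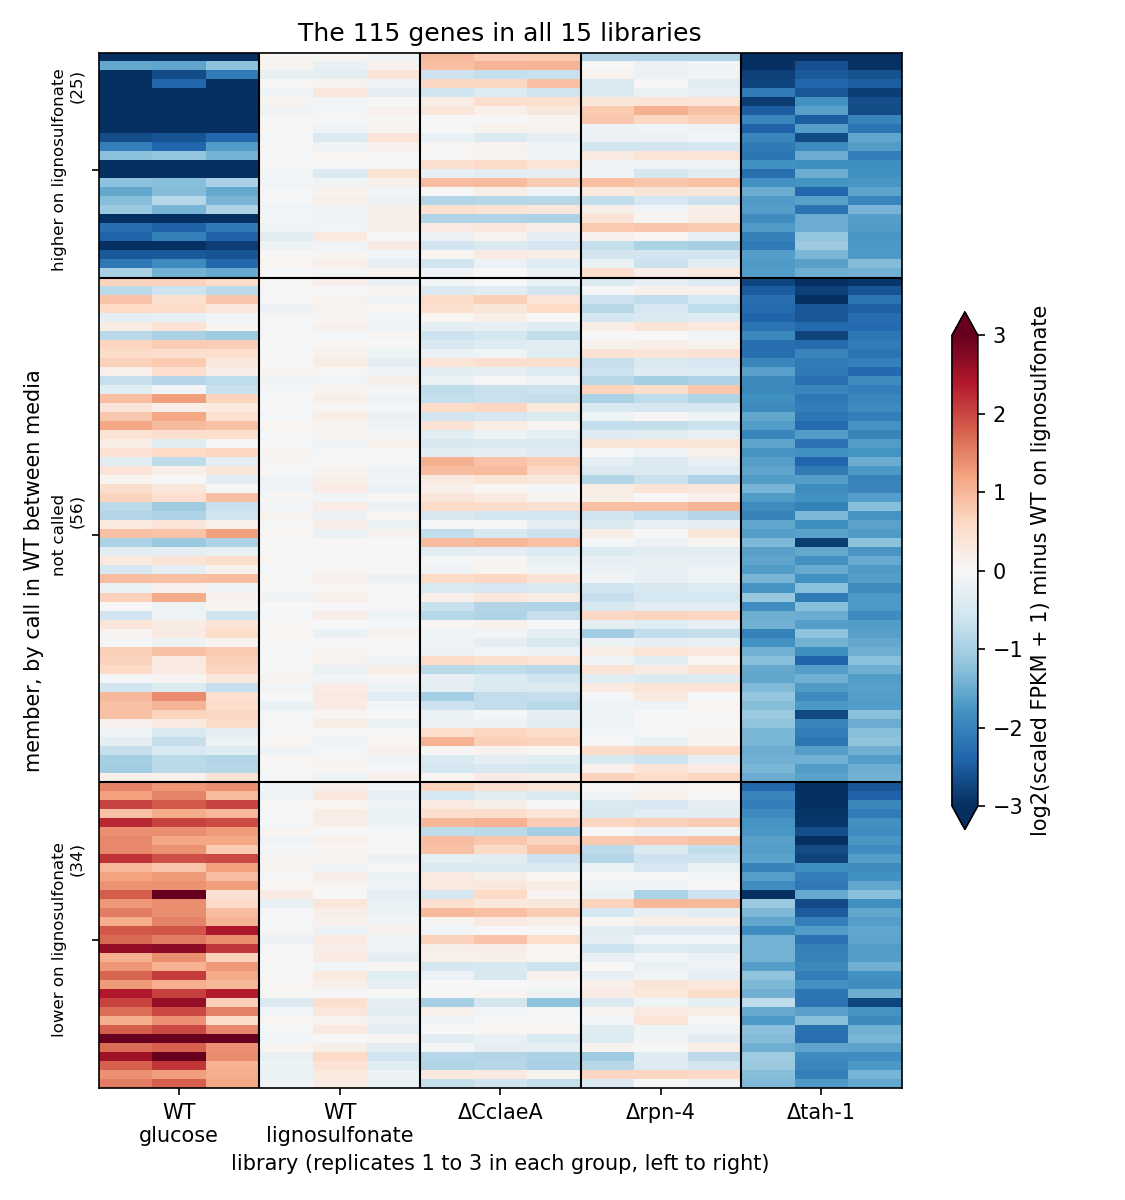
Heat map of the 115 genes (rows) in the 15 libraries (columns, replicates 1 to 3 of each group), coloured by log2(scaled FPKM + 1) minus that of the WT mean on lignosulfonate, with colours ending at 3 in either direction. The Δtah-1 columns are blue, as the rule favours, while the glucose columns run from blue in the 25 genes higher on lignosulfonate to red in the 34 lower there.

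The largest difference was in yc1106_00047. On lignosulfonate it had 1511, 1488 and 1328 scaled FPKM in WT and 156, 107 and 130.2 in Δtah-1. ΔCclaeA held 2849, 2448 and 2502, and Δrpn-4 789.6, 781 and 785, so this gene lay close to the upper edge of the band in ΔCclaeA (0.85) and to the lower edge in Δrpn-4 (-0.88). WT on glucose had 128, 133 and 119.8, and the glucose and Δtah-1 libraries overlapped. This gene was thus about as low in Δtah-1 on lignosulfonate, 131 ± 24.3 (SD, n = 3), as in WT on glucose, 127 ± 6.53.

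The next largest was in yc1106_03998, with a difference of -2.95. Its scaled FPKM were 138, 148 and 116 in WT on lignosulfonate and 18.9, 13.5 and 16.9 in Δtah-1. In contrast to yc1106_00047, it was higher in WT on glucose, at 215, 217 and 196, and the Δtah-1 libraries lay below all 12 others. ΔCclaeA had 126, 133 and 116, and Δrpn-4 99.0, 113 and 101.

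At the other end, values on both sides of the threshold were alike. yc1106_01009 was just inside at -1.501, with 131, 123 and 148 scaled FPKM in WT and 47.3, 43.5 and 49.0 in Δtah-1. yc1106_08699, also at -1.501, had 215, 229.6 and 208 in WT and 83.8, 66.9 and 77.8 in Δtah-1. Just outside, yc1106_03950 at -1.495 had 280.5, 259 and 301 in WT and 98.7, 98.6 and 99.1 in Δtah-1. yc1106_02598 at -1.494 had 30.6, 30.6 and 29.9 in WT and 10.8, 9.01 and 10.5 in Δtah-1. In all, 30 of the 115 genes were between -1.6 and -1.5, and 27 genes that met the other conditions were between -1.5 and -1.4.

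The genes spanned a wide range of abundance, on a scale per transcript length. Group means in WT on lignosulfonate ran from 2.60 to 20400.2 scaled FPKM with a median of 59.0, against 30.7 over all tested genes. In Δtah-1 the median was 15.8, against 31.2 over all tested genes. Only 1 of the 115 genes was listed at 0 in any library. Taken by library, the median of the 115 genes was 16.01 ± 2.71 scaled FPKM in Δtah-1, against 50.8 ± 3.77 in Δrpn-4, 57.9 ± 1.79 in ΔCclaeA and 60.1 ± 4.82 in WT on the same medium, and 63.9 ± 9.34 in WT on glucose (SD, n = 3 each).

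A single gene carried much of this abundance. yc1106_09585 had the highest mean of all genes in WT on lignosulfonate, with 20839.8, 18717 and 21644 scaled FPKM, and similar values of 20273, 21973 and 21922 in ΔCclaeA and 18183, 18708 and 18054 in Δrpn-4. In Δtah-1 it had 3790.3, 6476 and 4452, a difference of -2.06, and ranked 7 among all genes there. The 115 genes together held 5.04% ± 0.236 of the deposited FPKM sum in WT on lignosulfonate, 5.71% ± 0.160 in ΔCclaeA, 2.41% ± 0.020 in Δrpn-4, 1.11% ± 0.176 in Δtah-1 and 1.60% ± 0.017 in WT on glucose (SD, n = 3 each). Without yc1106_09585 the shares were 2.24% ± 0.060, 2.74% ± 0.067, 1.17% ± 0.014, 0.493% ± 0.016 and 1.60% ± 0.017 in the same order. On this measure, which uses no size factors, the share was thus lower than in WT on lignosulfonate in Δrpn-4 as well as in Δtah-1. As TPM, the median difference over all tested genes was itself -0.94 in Δrpn-4 and -0.11 in Δtah-1. Over the 115 genes it was -1.10 and -1.87, so in Δrpn-4 they lay near all tested genes. Δtah-1 replicate 2 had the highest value of yc1106_09585 in its group, whereas it had the lowest median over the 115 genes, 13.3 against 18.7 and 16.1 in replicates 1 and 3.

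Within their band, the other mutants scattered on both sides of WT. In ΔCclaeA 54 genes were above and 61 below, from -0.92 to 0.98 with a median of -0.03. In Δrpn-4 41 were above and 74 below, from -0.92 to 0.94 with a median of -0.14. In 56 genes both mutants were within 0.5 of WT. Since the band was set on log2(mean + 1), a gene could pass at a ratio of means of 2-fold or more, as yc1106_01010 did in Δrpn-4, the only such case among the 115 in either mutant. Exceptions to a clear separation from Δtah-1 were 2 genes, yc1106_04051 and yc1106_05579, chosen after their values were seen. For yc1106_04051, Δtah-1 replicate 1 had 29.2 scaled FPKM and replicates 2 and 3 had 10.02 and 6.63, and the ΔCclaeA libraries, at 24.8, 33.7 and 21.0, overlapped with the first. For yc1106_05579, Δtah-1 had 53.0, 29.7 and 29.9, and the lowest Δrpn-4 library had 52.8.

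The log2 difference between the 2 media was taken between WT libraries, and the rule set no fold threshold on it. The rule did drop on/off genes and used the same WT lignosulfonate libraries. The size factors, the filter and the pooled spread behind the p-values also drew on the mutant libraries. Calls were made with limma at an adjusted p under 0.05 and at least 2-fold. The 115 genes fell into 3 kinds. On lignosulfonate 25 rose (21.7%), against 22.7% of all tested genes, and 34 fell (29.6%), against 18.1%. The other 56 were not called. With the spread taken from only the 6 WT libraries, 25 again rose and 34 fell. The share that rose lay near the background. The share that fell lay above it, a difference for which no test was made. At an adjusted p under 0.05 without a fold minimum, 39 were higher and 60 lower, against 37.1% and 36.8% of all tested genes. Of the 56 not called, 40 passed the adjusted p under 2-fold, 14 higher and 26 lower, and 16 did not pass it.

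The medians moved with the scaling. The median log2 difference between lignosulfonate and glucose was -0.32 over the 115 genes and 0.00 over all tested genes after size factors. Over all tested genes it became 0.17 as deposited and 0.35 as TPM, and relative to those medians the 115 genes lay at -0.31 and -0.30. With FPKM as deposited 30 genes rose and 27 fell (23.5%, against 14.6% of all tested genes). As TPM 33 rose and 18 fell (15.7%, against 11.8%). All of the 27 and all of the 18 were among the 34.

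**Figure D2:**
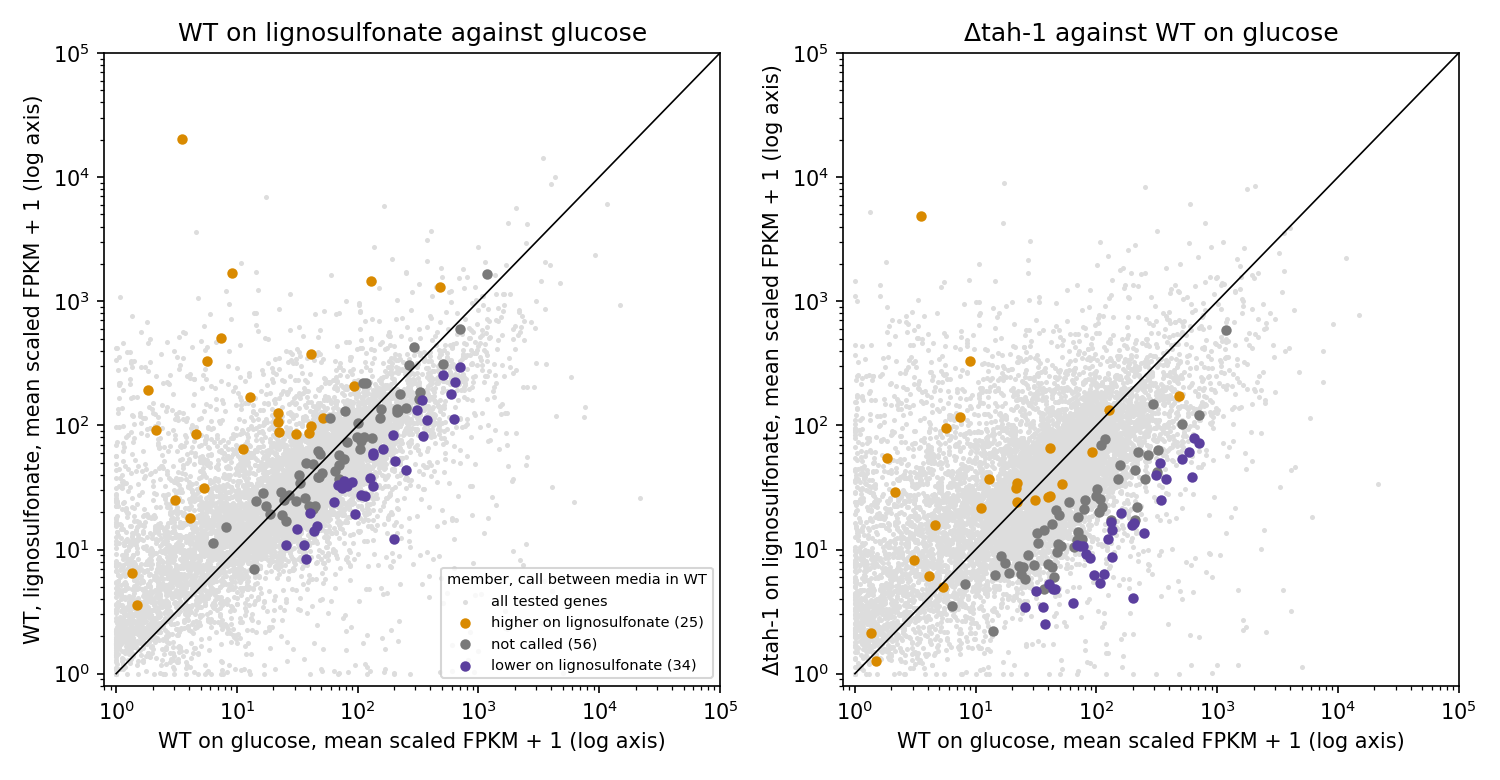
Mean scaled FPKM + 1 per gene on log axes, with WT on glucose on the x axis and WT on lignosulfonate (left) or Δtah-1 (right) on the y axis. Grey dots are all tested genes, coloured dots the 115 genes by their call between the media in WT, and the line marks equal values; in Δtah-1 only genes of the group that rose on lignosulfonate lie above the line.

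Among the 25 genes that rose were very large differences. yc1106_09585 went from 0.812, 2.53 and 4.18 scaled FPKM on glucose to the lignosulfonate values given above, of which 18717 was the lowest, a log2 difference of 12.63 (SE 0.29, limma adjusted p = 2.82e-14). yc1106_05319 had 7.43, 13.3 and 3.35 on glucose and 1779, 1593 and 1695 on lignosulfonate, a log2 difference of 7.71 (SE 0.33, limma adjusted p = 3.11e-11). The media did not overlap for either gene. At least 16-fold rises were called for 7 of the 115 genes (6.09%), against 3.12% of all tested genes. The rule had dropped on/off genes from the 115 but not from all tested genes, so these shares come from unlike sets. In Δtah-1 yc1106_05319 had 234, 482 and 265 scaled FPKM, below its WT lignosulfonate level and far above its glucose level, with replicate 2 again the highest of the 3.

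The rule also bore on where these 25 genes stood in Δtah-1 relative to glucose. The 7 that rose by under 1.5 had to lie below their glucose mean, and of the other 18, whose position was open, 17 were above it and 1 below. Over the 25 genes the median was 10.1 scaled FPKM in WT on glucose, 105 in WT on lignosulfonate and 30.4 in Δtah-1, with 113 in ΔCclaeA and 125 in Δrpn-4. The Δtah-1 mean was at least 2-fold above glucose in 9 genes, within 2-fold in 15 and at least 2-fold below in 1. In 12 of the 25 all 3 Δtah-1 libraries lay above all 3 glucose libraries, and in 5 they lay below. Among all tested genes, which were not limited by the rule or the call, these separations were seen in 38.2% and 37.4%, so nothing is read from the counts. In single genes, yc1106_09585 and yc1106_05319 stood between their glucose and lignosulfonate levels in Δtah-1, and yc1106_00047 overlapped with its glucose level.

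The 34 genes that fell on lignosulfonate were lower still in Δtah-1, as the rule required. Their median was 128 scaled FPKM in WT on glucose, 34.1 in WT on lignosulfonate and 9.84 in Δtah-1, with 37.8 in ΔCclaeA and 38.6 in Δrpn-4. Because a fall of at least 2-fold and the rule add up, all 34 had to lie below glucose in Δtah-1, and the differences ran from -5.61 to -2.65 on the log2 scale. yc1106_09678 had 223, 198 and 175 scaled FPKM on glucose and 10.7, 11.2 and 11.9 on lignosulfonate in WT, a log2 difference of -4.02 (SE 0.20, limma adjusted p = 1.96e-10). In Δtah-1 it had 4.00, 1.56 and 3.70, under each of the other 12 libraries. yc1106_04789 had 274, 281 and 189 on glucose and 41.1, 49.1 and 38.7 on lignosulfonate, a log2 difference of -2.49 (SE 0.17, limma adjusted p = 5.21e-09), and 15.4, 9.87 and 12.7 in Δtah-1. For both genes the way they were chosen fixed the order of the means: WT on glucose, WT on lignosulfonate, Δtah-1. The libraries of these groups did not overlap.

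**Figure D3:**
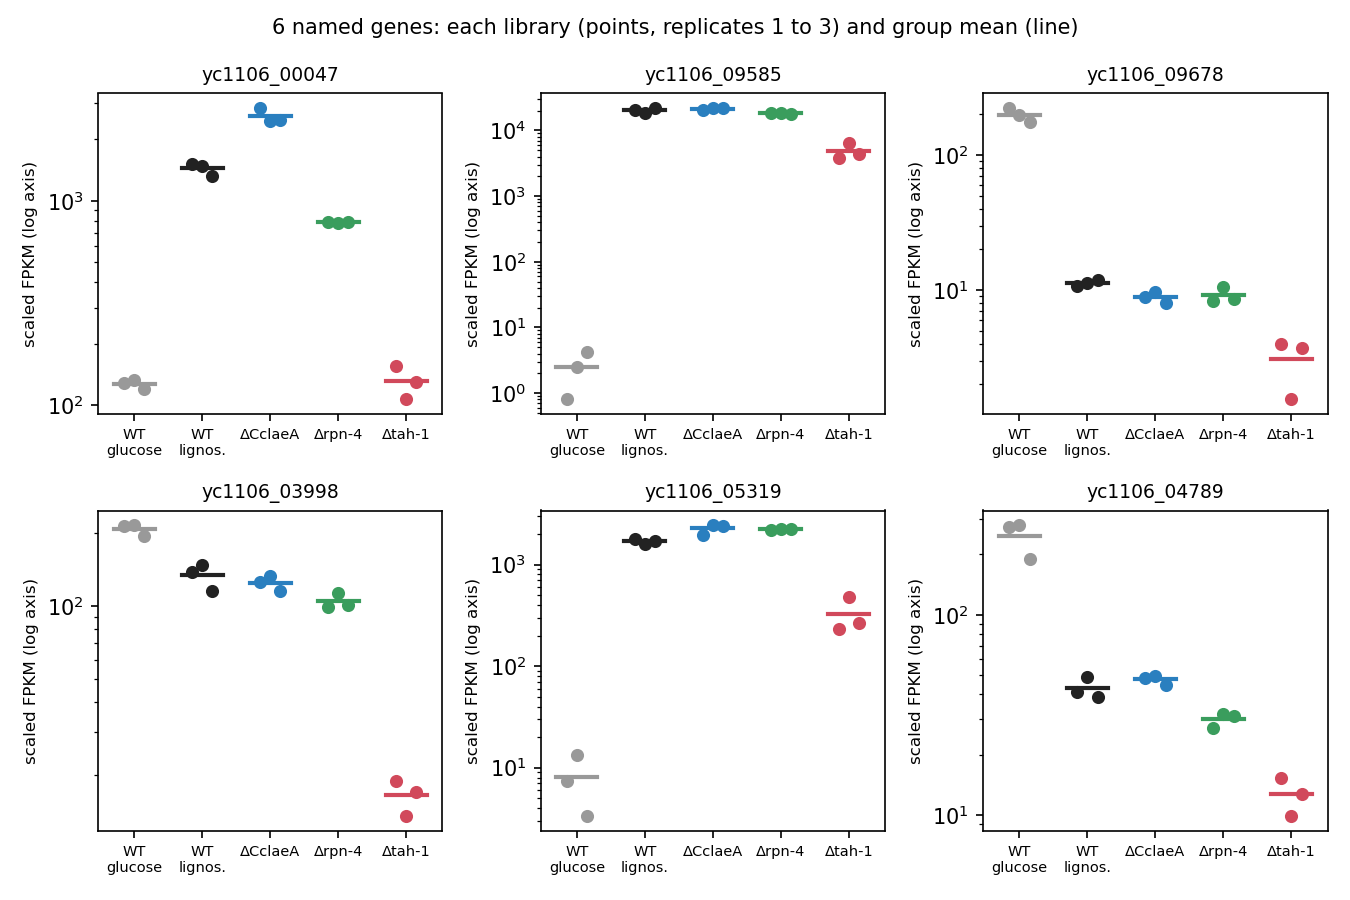
Scaled FPKM on a log axis for the pairs of genes with the largest difference in Δtah-1 (left), the largest rise on lignosulfonate in WT (middle) and the largest fall there (right); points are libraries, lines group means. Δtah-1 lies below the other lignosulfonate groups in each gene, near the glucose level in yc1106_00047, above it in yc1106_09585 and yc1106_05319, and below it in the other 3.

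The 56 genes not called between the media had a median of 66.4 scaled FPKM in WT on glucose, 54.6 in WT on lignosulfonate and 15.6 in Δtah-1. Their log2 differences between media ran from -0.997 to 0.995. Given these differences and the fall of at least 1.5 set by the rule, all 56 Δtah-1 means had to lie below glucose. In all 56 the 3 Δtah-1 libraries lay below the 3 glucose libraries, against 37.4% of all tested genes. In 50 the mean was at least 2-fold lower. Counting all 3 kinds, Δtah-1 was at least 2-fold below glucose in 85 of the 115 genes, against 23.7% of all tested genes, and at least 2-fold above in 9, against 27.2%; the low Δtah-1 values were chosen, so nothing is read from this. Over the 115 genes, Δtah-1 had the lowest of the 5 group means in 98 and WT on glucose in 17, while the highest was WT on glucose in 62. Among the lignosulfonate groups the rule itself made Δtah-1 the lowest. It also kept Δtah-1 from being the highest and held the other mutants near WT on lignosulfonate. No share over all tested genes stands beside these counts, so nothing is read from them.

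The spread between Δtah-1 libraries differed by kind of gene. In the 34 genes that fell on lignosulfonate, replicate 2 was below the mean of the other 2 replicates in 29, by a median of -0.55 on the log2(scaled FPKM + 1) scale. The library medians were 12, 7.29 and 9.75 scaled FPKM in replicates 1 to 3. In the 25 genes that rose, replicate 2 was below in 10 and above in 15, with a median of 0.21. Over all tested genes that fell on lignosulfonate, replicate 2 was below in 60.3%, by a median of -0.13, and over those that rose it was below in 38.3%, with a median of 0.13. The same 34 genes varied in WT. Lignosulfonate replicate 3 was below the mean of the other 2 replicates in 29 of them (85.3%), and glucose replicate 3 also in 29. Over all tested genes that fell on lignosulfonate, these shares were 61.3% and 62.5%. Lignosulfonate replicate 2 in WT was above the mean of the other 2 replicates in 27 of the 34 and below in 7. Its median was 0.30, against 0.09 over all tested genes that fell. Without that library, 96 of the 115 genes stayed at -1.5 or less in Δtah-1, and all 115 stayed at -1 or less. The part of these library differences in the Δtah-1 values was not tested. Over the 115 genes the median SD of log2 values was 0.30 in Δtah-1, 0.13 and 0.20 in WT on lignosulfonate and on glucose, and 0.10 in each of the other mutants, and over all tested genes the Δtah-1 value was 0.24.

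**Figure D4:**
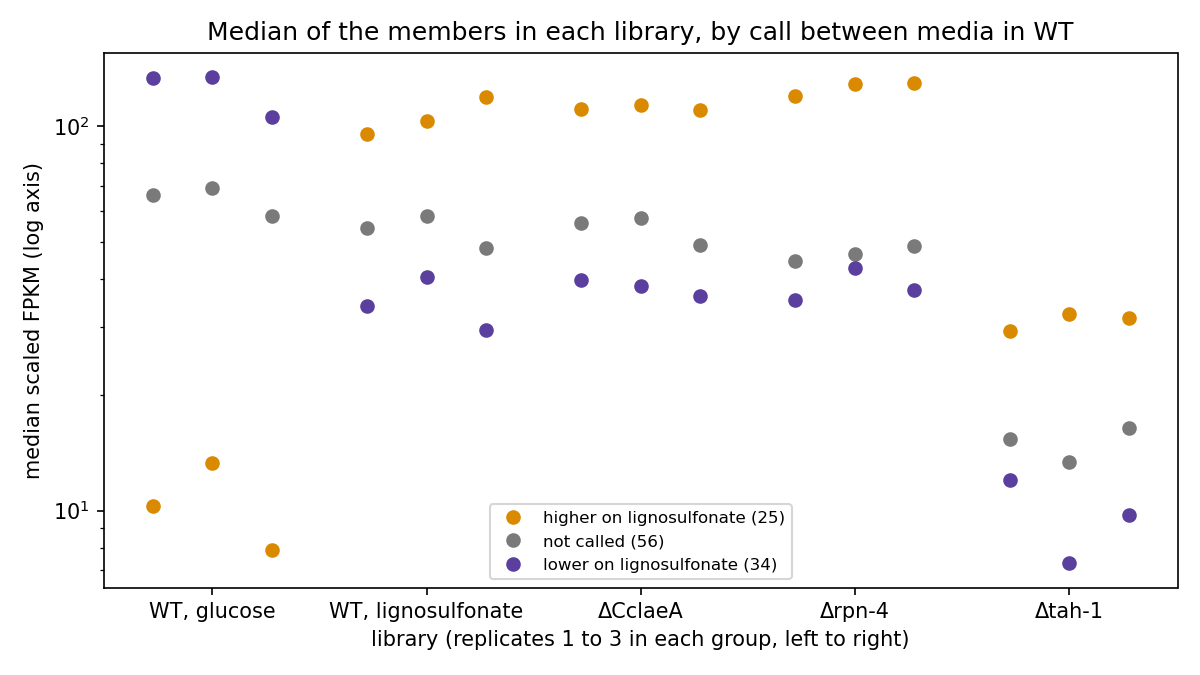
Median scaled FPKM (log axis) in each library of the genes that rose (25), were not called (56) or fell (34) on lignosulfonate in WT; each point is 1 library. The Δtah-1 libraries are lowest on lignosulfonate for all 3 kinds, between 29.4 and 32.4 for the genes that rose and between 7.29 and 12 for those that fell.

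Few of the genes had consecutive IDs, and the sources used here do not say whether IDs follow the order of the genome. There were 5 directly adjacent pairs and 1 pair with a single ID between, 12 genes in all, and no longer run. Of the 207 tested IDs next to a member that were not members themselves, 8 (3.86%) were at -1.5 or less in Δtah-1. The median difference of the 207 was -0.17. Over all tested genes the share was 3.12%, but that set includes the members, which were all at -1.5 or less by the rule. The shares thus come from unlike sets, and whether low Δtah-1 values gather among neighbouring IDs was not tested.

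The pair yc1106_05318 and yc1106_05319 rose together on lignosulfonate. yc1106_05318 had 0.523, 1.11 and 0.865 scaled FPKM on glucose, 199, 185 and 197 in WT on lignosulfonate, and 54.1, 53.1 and 53.6 in Δtah-1, a log2 difference between media of 6.74 (SE 0.11, limma adjusted p = 8.84e-16). Its Δtah-1 libraries were close together, unlike those of yc1106_05319. The IDs on either side were near 0, with a mean of at most 1.22 scaled FPKM in any group.

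The pair yc1106_00964 and yc1106_00965 fell together instead. On glucose they had means of 106 ± 8.29 and 133 ± 11.7 scaled FPKM, on lignosulfonate in WT 26.4 ± 1.61 and 31.8 ± 3.26, and in Δtah-1 4.39 ± 2.53 and 7.67 ± 3.35 (SD, n = 3 each), with log2 differences between media of -1.96 and -2.04 (limma adjusted p = 2.00e-05 and 2.43e-06). In both genes Δtah-1 replicate 2 was lowest, at 1.48 and 3.81. The ID before them, yc1106_00963, went the other way in Δtah-1, at 168 scaled FPKM against 60.3 in WT on lignosulfonate.

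The remaining pairs were not alike in their response to the media. yc1106_04803 rose on lignosulfonate, from 91.6 ± 19.4 to 205 ± 22.0 scaled FPKM (SD, n = 3 each; log2 difference 1.17, limma adjusted p = 3.42e-06), and its neighbour yc1106_04804 had 111 ± 5.64 and 79.0 ± 4.37, under the 2-fold minimum. In Δtah-1 they had 59.9 ± 7.27 and 20.8 ± 2.72. yc1106_01554 fell from 337 ± 80.8 to 158 ± 28.8 (log2 difference -1.07, limma adjusted p = 0.000104), a call that was lost without WT on glucose replicate 2 (-0.92) or WT on lignosulfonate replicate 3 (-0.94), as deposited (-0.89) and as TPM (-0.70). Its neighbour yc1106_01555 had 151 ± 12.2 and 114 ± 2.89, and in Δtah-1 they stood at 48.8 ± 9.97 and 36.2 ± 3.82.

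In the last of these pairs the levels were lower. yc1106_08134 fell from 62.9 ± 4.40 scaled FPKM on glucose to 23.3 ± 2.30 on lignosulfonate and had 2.70 ± 1.31 in Δtah-1 (log2 difference between media -1.397, limma adjusted p = 2.94e-05). yc1106_08132, which was not called between the media, had 45.7 ± 6.28, 37.2 ± 3.02 and 8.55 ± 2.44. The ID between them, yc1106_08133, had 26.0 in WT on lignosulfonate and 20.5 in Δtah-1. Of the pair yc1106_01009 and yc1106_01010, the second had 5.35 ± 0.919 on glucose, 10.3 ± 1.73 in WT on lignosulfonate and 2.49 ± 1.03 in Δtah-1, and was highest in Δrpn-4, at 20.7 ± 1.13 (SD, n = 3 each).

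Exchanging the mutants in the rule gave shorter lists after size factors, the only scaling used for them. Lowered only in ΔCclaeA were 68 genes, with a median difference of -1.82 from WT, and lowered only in Δrpn-4 were 13, with a median of -1.73. Of the 68, 43 (63.2%) rose and 6 (8.82%) fell on lignosulfonate in WT, and their median log2 difference between media was 1.90, where the 115 genes of Δtah-1 had -0.32. Of the 13, 4 rose and 2 fell, with a median of 1.01. The median level in WT on glucose was 15.8 scaled FPKM for the 68 genes and 64.4 for the 115, while on lignosulfonate it was 60.8 and 59.0. These lists share the WT lignosulfonate libraries, and the differences between them were not tested. Over all tested genes the median Δrpn-4 difference was -0.01 after size factors, -0.79 as deposited and -0.94 as TPM. How the lengths of the exchanged lists move with the scaling was not tested.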

How the data were processed

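RNA-seq of mycelia gave 15 libraries in 5 groups of 3, grouped by the titles in the labels. Each deposited file holds FPKM per gene ID for 1 library, per the file headers of the 6 WT libraries; for the 9 mutant libraries the unit was taken from the like form and range of the values. Tools named in the submitters' processing notes, with no role stated, are RSEM 1.3.3, HISAT2 2.1.0, fastp 0.19.5 and DESeq2. No genome build or annotation is given in the sources used here. No read counts were used, so count models were not run.

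FPKM were divided by median-of-ratios size factors over the 8858 genes above 0 in all libraries. The 9265 genes that reached 1 FPKM in 3 or more libraries were tested on log2(scaled FPKM + 1), a scale that understates changes of low genes, with limma 3.58.1 in R 4.3.3 (trend and robust, all 15 libraries, a mean per group) and Benjamini-Hochberg adjustment over all of them. Standard errors pool the spread of all groups. The fit was tested on simulated data. Other steps used matplotlib 3.10.9, pandas 2.3.3 and NumPy 2.4.6 in Python 3.11.15. The on/off rule was judged on FPKM as deposited.

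The members and lists were chosen with earlier results of these data known. IDs were named by rule: the 2 largest differences in Δtah-1, the 2 largest called rises and falls between media, the 2 highest in WT on lignosulfonate, the 2 nearest the threshold on each side, and the longest runs of adjacent IDs (all 6 pairs); other IDs were chosen after their values were seen.

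Read depth is not given by FPKM. The steps of values between 0.08 and 0.6 FPKM, which widen as a library gets shallower, gave depths of 0.865 to 1.16 of that of WT on lignosulfonate replicate 1 in all libraries except WT on glucose replicate 2, where the estimate was 1.41 from 102 genes. At most 1.50% of the values of tested genes were identical between replicates. Alternatives were other scalings, a pseudocount of 0.1, no filter, only the 6 WT libraries, a replicate block, no fold minimum, a threshold of -1 and leaving out each replicate.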

Additional observations from a re-analysis of the deposited data

How the results depend on the processing

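The rule found 198 genes with FPKM as deposited, 80 as TPM, 148 with a pseudocount of 0.1, 457 with a Δtah-1 threshold of -1, and 116 with on/off genes judged on scaled FPKM, an alternative chosen after seeing the data. Leaving out each library in turn gave 100 to 129 genes, fewest without Δtah-1 replicate 2, of which 88 were among the 115. Without WT on lignosulfonate replicate 2 the rule found 103, of which 93 were among the 115. Of the calls between media, 18 genes fell as TPM, and without a fold minimum 39 rose and 60 fell. Leaving out each WT library gave 25 to 27 that rose, 31 to 36 that fell and a median from -0.41 to -0.30. The median over the 115 genes turned to 0.052 as TPM, where that of all tested genes was 0.35. As TPM the uncalled differences of yc1106_01009 and yc1106_08132 turned to 0.16 and 0.085. Of 216 values of the 18 named members, 206 kept direction and side of the threshold, 4 lost and 4 gained a call. The cause of these shifts was not tested.

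Whether the replicate number of the WT libraries marks pairs was not settled. Deviations from the group means correlated across genes at 0.0026, 0.45 and 0.51 for numbers 1, 2 and 3. WT on glucose replicates 2 and 3 correlated best with the lignosulfonate library of the same number. Replicate 1 correlated best with lignosulfonate replicate 2 (0.20). With the replicate block, 25 members rose and 34 fell, as without it. Depth is unknown in reads, so no counting limit could be set for the low genes.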
